A study of Mus musculus with 24 samples.

Results

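The genes described here are 10 genes of ATF4 signaling and the unfolded protein response, *Atf4*, *Ddit3*, *Asns*, *Trib3*, *Chac1*, *Ddit4*, *Hspa5*, *Xbp1*, *Herpud1*, and *Dnajb9*. They were chosen by name, with earlier results of these data known. All 10 were found among the 14427 genes of the count table after Ensembl identifiers were matched to GENCODE M21 symbols. The study asked whether mutant p53 acts differently in male and female cells and measured polyA RNA by RNA-seq in 24 libraries from 8 lines of mouse cortical astrocytes, 3 replicates per line. A knockout line (p53 KO) and lines with the mutants R172H, Y202C, or Y217C were made from 1 male and from 1 female primary culture.

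All lines came from *Trp53* f/- astrocytes of C57BL/6 background, taken at postnatal day 1 and pooled from several pups of each sex. Mutant *Trp53* was expressed from a retrovirus with IRES-eGFP, green cells were sorted, and the floxed allele was then removed with a lentivirus carrying Cre-IRES-Puro. The p53 KO lines received the Cre lentivirus alone, so every line lacks the wild-type allele and has received Cre. Each comparison of a mutant with p53 KO therefore also carries the retrovirus, eGFP, and the sort, which cannot be told apart from the mutation. Cells were grown in DMEM/F12 with FBS and used at passages 10 to 15. The methods describe replicates of the in vitro experiments as separate thaws and platings, so the p-values below measure the spread within a line. Sex, culture, and line history cannot be told apart with 1 culture of each sex.

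ATF4 is a transcription factor whose protein is made when the translation factor eIF2 is phosphorylated, by PERK during endoplasmic reticulum (ER) stress or by GCN2, PKR, or HRI under other stresses. It raises genes for amino acid uptake and synthesis, tRNA charging, and, under lasting stress, growth arrest and cell death. The other arms of the unfolded protein response, IRE1 with XBP1 and ATF6, raise ER chaperones and the machinery that degrades misfolded ER proteins. ATF4 is controlled largely in translation and XBP1 by splicing, and counts per gene measure neither.

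The promoters of some of these genes hold the DNA letters that each arm is known for, and those stretches are shown because the letters set the genes apart by a property other than their expression. The C/EBP-ATF response element (CARE, TGATGNAA) and the ER stress response elements (ERSE, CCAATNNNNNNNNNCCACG, and ERSE-II, ATTGGNCCACG) were searched on both strands in the 250 bases before each RefSeq start site on GRCm38.p6. Of 32851 such windows, 3.45% held CARE, 0.113% held ERSE, and 0.0304% held ERSE-II. CARE letters were found in *Asns* at 23 bases before the start, in *Chac1* at 193, and in *Herpud1* at 112, the last pair on the reverse strand. ERSE letters were found in *Hspa5* at 65 bases before the start and ERSE-II in *Herpud1* at 52. These distances are to RefSeq start sites. The gene bounds given below are from GENCODE and begin further upstream for *Hspa5* and *Asns*, so their matches lie inside those bounds. No letters of the 3 elements were found in the windows of *Atf4*, *Ddit3*, *Trib3*, *Ddit4*, *Xbp1*, or *Dnajb9*. Each stretch runs 5′ to 3′ on the strand of its gene, and capitals mark the matched letters. The *Asns* stretch is chr6:7693225-7693314 on the minus strand, *Chac1* is chr2:119350992-119351101, *Hspa5* is chr2:34772020-34772049, and *Herpud1* is chr8:94386264-94386393, the last 3 on the plus strand.
Asns: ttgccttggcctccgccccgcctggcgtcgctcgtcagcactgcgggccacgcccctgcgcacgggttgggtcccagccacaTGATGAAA
Chac1: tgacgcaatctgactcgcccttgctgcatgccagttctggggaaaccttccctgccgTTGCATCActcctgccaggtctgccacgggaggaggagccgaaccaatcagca
Hspa5: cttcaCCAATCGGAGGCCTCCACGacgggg
Herpud1: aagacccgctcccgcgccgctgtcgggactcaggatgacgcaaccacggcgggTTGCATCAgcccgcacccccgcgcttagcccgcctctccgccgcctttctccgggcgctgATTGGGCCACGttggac
*Herpud1* was the only one of the 10 with letters of both kinds, a CARE and an ERSE-II in the same stretch.

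Total counts ranged from 52787288 to 136503809 per library, with a median of 80684345, and are given below as CPM, counts scaled to the TMM-normalized size of the library. Reads on *Trp53* stood at 46.5 to 53.7 CPM in the p53 KO libraries and at 572 to 3870 CPM in the mutant libraries, which separates knockout from mutant libraries as labeled. Counts per gene do not show which mutation a library holds. The lowest mutant level was in female p53 Y202C, at 572 to 605 CPM, and the highest in female p53 Y217C, at 3546 to 3870 CPM. Astrocyte markers were mixed. *Gfap* averaged from 0.0482 to 0.257 CPM in 7 lines and 6.93 CPM in male p53 Y217C. *Aqp4* was at 0 in every library of female p53 KO and male p53 R172H and averaged 1.77 CPM in male p53 Y202C and 8.06 CPM in male p53 Y217C. *Gja1* averaged 81.0 to 221 CPM, *Sox9* 80.0 to 183 CPM, *Glul* 25.4 to 65.8 CPM, and *Slc1a3* 3.14 to 281 CPM over the lines. All 10 astrocyte markers of the list were in the table, and their summed level was lowest in male p53 Y202C, at 227 to 240 CPM, and highest in female p53 R172H, at 650 to 685 CPM. The sum follows the abundant markers, and *Slc1a3* alone averaged 281 CPM in female p53 R172H. *Aldh1l1* ranked the lines differently, from 0.0546 CPM in male p53 R172H to 28.4 CPM in male p53 Y202C and 56.6 CPM in male p53 Y217C. Of 8 microglia markers only *Csf1r* was in the table, at 3.18 CPM or less. In these bulk samples, fewer cells of a type and less RNA per cell cannot be told apart.

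**Figure D1:**
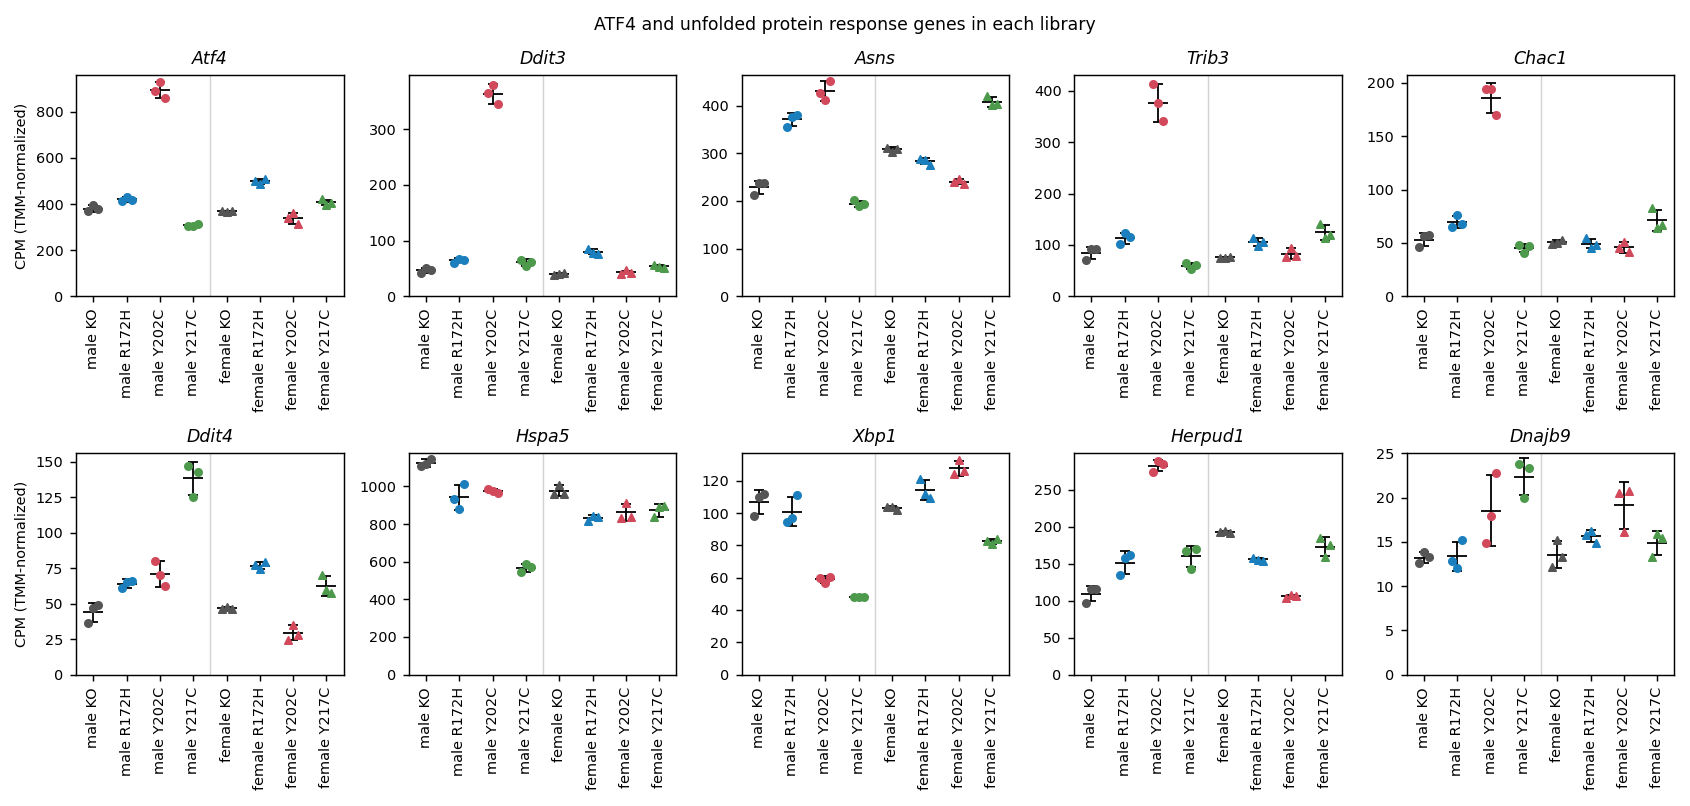
Level of each gene in CPM (TMM-normalized, vertical axes from 0) in the 24 libraries by line. Points are libraries (circles male, triangles female), and bars show the mean and SD of 3 replicates. In male p53 Y202C the 3 libraries stand above all others for *Atf4*, *Ddit3*, *Trib3*, *Chac1*, and *Herpud1*, and in male p53 Y217C they stand above for *Ddit4* and below for *Hspa5* and *Xbp1*.

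Of the 6 ATF4 genes, 5 had their highest mean in male p53 Y202C, and *Ddit4* was the exception. *Atf4* (ENSMUSG00000042406, chr15:80255184-80257541, plus strand, GRCm38), the transcription factor itself, measured 891, 930, and 859 CPM in the 3 libraries of male p53 Y202C and 369, 395, and 377 CPM in male p53 KO. Female p53 Y202C measured 338, 362, and 315 CPM, just below the 371, 365, and 369 CPM of female p53 KO. The male mutant libraries were thus separate from all the others, and the female mutant lay under its own control by a small margin. Changes are given as the log2 fold change ± SE of edgeR's quasi-likelihood model, with 3 libraries per line and p-values adjusted over all genes. *Atf4* was 2.35-fold higher in male p53 Y202C than in male p53 KO (log2 fold change 1.23 ± 0.05, adjusted p = 1.28e-16). After male p53 Y202C the line means ran from female p53 R172H at 498 CPM to male p53 Y217C at 307 CPM, and the ranges of male p53 R172H and female p53 Y217C overlapped, as did those of the control lines.

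*Ddit3* (ENSMUSG00000025408, chr10:127290774-127296288, plus strand) encodes CHOP, the transcription factor tied to cell death under ER stress, and it had the largest change among the 10. It measured 365, 380, and 345 CPM in male p53 Y202C against 41.5, 50.7, and 47.6 CPM in male p53 KO. No other line exceeded 85.3 CPM, the highest library of female p53 R172H. The rise in male p53 Y202C was 7.79-fold (log2 2.96 ± 0.08, adjusted p = 1.31e-19). In female p53 Y202C the level was 40.7, 46.4, and 41.8 CPM, which overlapped the 38.4, 39.4, and 42.2 CPM of female p53 KO (log2 0.10 ± 0.08, adjusted p = 0.237). *Ddit3* rose also in female p53 R172H, where 85.3, 77.8, and 76.4 CPM lay well above the control (log2 1.00 ± 0.08, adjusted p = 3.86e-11). A second annotated *Ddit3* entry matches the gene over 105 bases and is not in the count table, so reads shared with it could have been left out. The gene overlaps *Mars* on the opposite strand, and the strand used for counting is not given in the sources used here. *Mars* changed by 0.25 ± 0.07 in male p53 Y202C (adjusted p = 0.00385).

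*Trib3* and *Chac1* had their highest means in the same 3 lines, male p53 Y202C, female p53 Y217C, and male p53 R172H, and their lowest in male p53 Y217C. For *Chac1* the lowest place was not clear, since male p53 Y217C at 45.4 CPM overlapped female p53 Y202C at 46.1 CPM. *Trib3* (ENSMUSG00000032715, chr2:152337422-152344032, minus strand), a pseudokinase induced by ATF4 and CHOP, measured 414, 376, and 341 CPM in male p53 Y202C and 71.2, 91.7, and 91.2 CPM in male p53 KO. *Chac1* (ENSMUSG00000027313, chr2:119351229-119354381, plus strand), which degrades glutathione, measured 194, 194, and 170 CPM in male p53 Y202C and 45.9, 56.5, and 57.0 CPM in male p53 KO. For both genes the male p53 Y202C libraries did not overlap any other line. The rises were 4.45-fold for *Trib3* (log2 2.15 ± 0.11, adjusted p = 1.22e-14) and 3.50-fold for *Chac1* (log2 1.81 ± 0.10, adjusted p = 9.91e-14). In female p53 Y202C, *Trib3* measured 77.0, 94.9, and 77.7 CPM and *Chac1* 45.7, 51.3, and 41.2 CPM, and each overlapped its control, with adjusted p of 0.254 and 0.223. The second highest mean of both was in female p53 Y217C, with ranges that overlapped male p53 R172H. In female p53 Y217C, *Trib3* rose by log2 0.72 ± 0.11 (adjusted p = 3.77e-06) and *Chac1* by 0.49 ± 0.10 (adjusted p = 0.000232).

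*Asns* (ENSMUSG00000029752, chr6:7675169-7693254, minus strand), which makes asparagine from aspartate, was spread over more lines. It measured 427, 411, and 452 CPM in male p53 Y202C, 356, 377, and 380 CPM in male p53 R172H, and 213, 237, and 237 CPM in male p53 KO. In the female culture the order differed, with 420, 401, and 404 CPM in p53 Y217C, 312, 302, and 310 CPM in p53 KO, and 239, 247, and 236 CPM in p53 Y202C. The highest lines, male p53 Y202C and female p53 Y217C, overlapped. *Asns* rose in male p53 Y202C (log2 0.91 ± 0.05, adjusted p = 3.28e-14), male p53 R172H (0.70 ± 0.05, adjusted p = 5.37e-11), and female p53 Y217C (0.41 ± 0.05, adjusted p = 1.55e-07). It fell in female p53 Y202C (-0.35 ± 0.05, adjusted p = 7.36e-07) and male p53 Y217C (-0.24 ± 0.05, adjusted p = 0.000116).

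*Ddit4* (ENSMUSG00000020108, chr10:59949669-59951834, minus strand) encodes REDD1, an inhibitor of mTORC1 that also responds to hypoxia and glucocorticoids, and it peaked in a different line from the other ATF4 genes. It measured 147, 125, and 143 CPM in male p53 Y217C, against 80.1, 70.3, and 62.2 CPM in male p53 Y202C and 36.5, 46.6, and 49.0 CPM in male p53 KO. The male p53 Y217C libraries were above every other library. Its rise there was 3.13-fold (log2 1.65 ± 0.11, adjusted p = 3.54e-12). Female p53 Y202C was at the other end with 24.7, 35.1, and 28.2 CPM, below the 46.5, 47.8, and 46.1 CPM of its control (log2 -0.67 ± 0.11, adjusted p = 1.39e-05).

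Among the ER genes, *Hspa5* and *Xbp1* were lowest in male p53 Y217C. *Hspa5* (ENSMUSG00000026864, chr2:34771970-34777547, plus strand) encodes BiP, the main ER chaperone and the usual readout of ER stress. It measured 543, 587, and 570 CPM in male p53 Y217C and 1108, 1118, and 1148 CPM in male p53 KO, with every other library from 817 to 1011 CPM. *Hspa5* thus fell by 0.99 on the log2 scale in male p53 Y217C (SE 0.05, adjusted p = 2.23e-14). In male p53 Y202C, where most ATF4 genes were highest, *Hspa5* measured 986, 978, and 967 CPM and was also below its control (log2 -0.20 ± 0.05, adjusted p = 0.00108). *Hspa5* fell in all 6 comparisons, and the other 4 changes lay between -0.26 and -0.16. The call in female p53 Y217C was lost without female p53 KO replicate 2 (adjusted p = 0.0518) and without female p53 Y217C replicate 1 (adjusted p = 0.0586).

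*Xbp1* (ENSMUSG00000020484, chr11:5520659-5525893, plus strand), the transcription factor of the IRE1 arm, measured 47.8, 48.0, and 48.2 CPM in male p53 Y217C, 60.0, 56.4, and 60.5 CPM in male p53 Y202C, and 98.3, 110, and 112 CPM in male p53 KO. In the female culture it ran from 82.5, 81.1, and 84.0 CPM in p53 Y217C to 124, 133, and 126 CPM in p53 Y202C, around 104, 104, and 102 CPM in p53 KO. The Y202C lines thus stood on opposite sides of their controls. *Xbp1* fell by 1.15 on the log2 scale in male p53 Y217C (SE 0.06, adjusted p = 1.26e-14) and by 0.86 in male p53 Y202C (SE 0.06, adjusted p = 2.90e-12), and it rose by 0.30 in female p53 Y202C (SE 0.06, adjusted p = 5.70e-05).

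*Herpud1* (ENSMUSG00000031770, chr8:94386438-94395377, plus strand), an ER membrane protein of ER-associated degradation, had the CARE and ERSE-II letters shown above and its highest level in male p53 Y202C. It measured 274, 289, and 284 CPM in male p53 Y202C and 97.3, 115, and 115 CPM in male p53 KO. The female lines went the other way, from 193, 194, and 191 CPM in p53 KO to 104, 108, and 106 CPM in p53 Y202C. The female mutant thus lay in the range of the male control. The changes were 2.59-fold up in male p53 Y202C (log2 1.37 ± 0.07, adjusted p = 4.14e-14) and log2 -0.86 ± 0.07 in female p53 Y202C (adjusted p = 3.74e-10). *Dnajb9* (ENSMUSG00000014905, chr12:44205559-44210326, minus strand), an ER co-chaperone of BiP that is raised by spliced XBP1, was the lowest of the 10, at 12.1 to 23.8 CPM over all libraries. It rose in male p53 Y217C (log2 0.76 ± 0.13, adjusted p = 1.02e-05), female p53 Y202C (0.50 ± 0.13, adjusted p = 0.0013), and male p53 Y202C (0.48 ± 0.13, adjusted p = 0.00157), while *Xbp1* itself fell in both male lines. An annotated copy of *Dnajb9*, *Gm6568*, matches it over 156 bases and is not in the count table, so reads shared with it could have been left out.

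Per kilobase of exon, *Hspa5* and *Atf4* had the highest mean levels of the 10 genes in all 8 lines. *Hspa5* came first in 6 of them, for example at 266 CPM per kilobase in male p53 KO beside 161 for *Atf4*, and *Atf4* came first in female p53 R172H and male p53 Y202C. In male p53 Y202C the order was *Atf4* at 379, *Hspa5* at 231, *Ddit3* at 212, and *Trib3* at 177 CPM per kilobase.

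**Figure D2:**
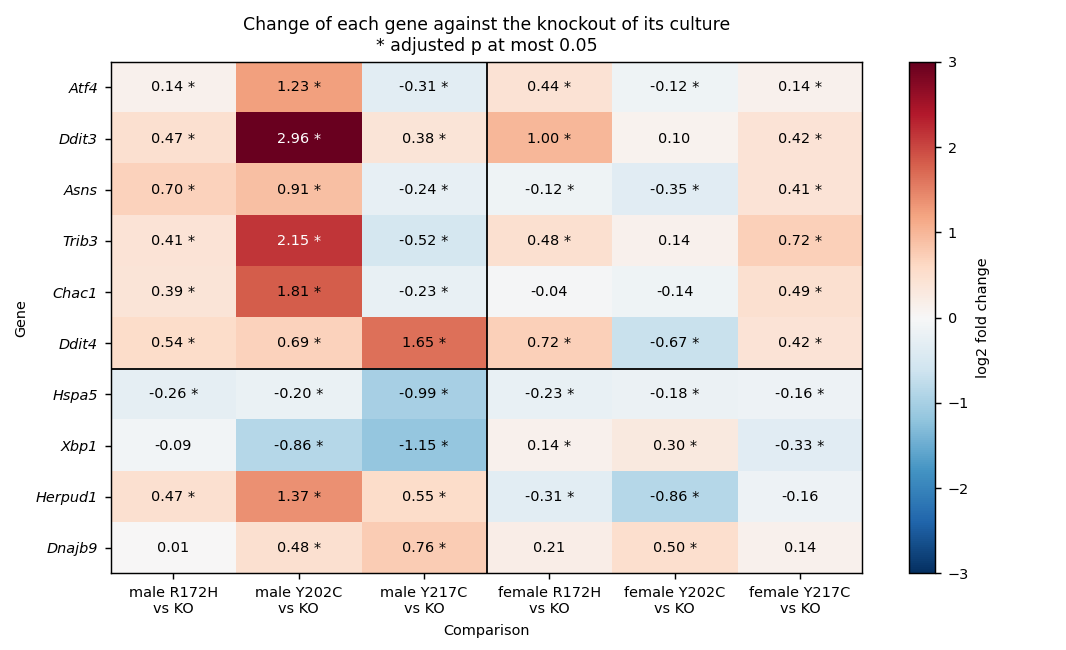
Log2 fold change of each gene (rows) against the p53 KO line of its culture (columns), printed in each cell and colored from blue (lower) to red (higher). Asterisks mark an adjusted p of at most 0.05, the upper 6 rows are ATF4 genes, and the lower 4 are ER genes. Male p53 Y202C has the strongest red, 2.96 for *Ddit3*, and male p53 Y217C the strongest blue, -1.15 for *Xbp1*.

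All 10 genes passed the test in male p53 Y202C. There 8 rose and 2 fell, and of all genes tested 37.6% were higher and 35.4% lower. The median log2 fold change was 1.07 over the 10 and 0.01 over all genes. In male p53 R172H, 7 rose and 1 fell (20.2% and 20.5% of all genes), with a median of 0.40, and *Xbp1* and *Dnajb9* did not pass the test. All 6 ATF4 genes rose there, by 0.14 for *Atf4* up to 0.70 for *Asns*. The *Atf4* call in that line was lost without male p53 KO replicate 1 (adjusted p = 0.0879), male p53 KO replicate 3 (adjusted p = 0.0559), or male p53 R172H replicate 2 (adjusted p = 0.0858), and *Xbp1* was called lower without male p53 R172H replicate 3 (adjusted p = 0.0302). In male p53 Y217C, 4 rose and 6 fell (34.9% and 35.6% of all genes), with a median of -0.23. The fall of *Chac1* in that line, -0.23 ± 0.10 with overlapping ranges and an adjusted p of 0.048, was lost without male p53 KO replicate 2 (adjusted p = 0.163), male p53 KO replicate 3 (adjusted p = 0.176), or male p53 Y217C replicate 2 (adjusted p = 0.181). With the replicate block its adjusted p was 0.057, with DESeq2 0.0524.

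In the female culture the largest rise among the 10 was that of *Ddit3* in p53 R172H, 1.00, and the largest fall that of *Herpud1* in p53 Y202C, -0.86. In female p53 R172H, 5 rose and 3 fell (34.4% and 35.3% of all genes), with a median of 0.18. *Ddit4* rose there by 0.72 ± 0.11 (adjusted p = 3.89e-06) beside *Ddit3*, and *Herpud1* fell by 0.31 (SE 0.07, adjusted p = 0.000674). In female p53 Y202C, 2 rose and 5 fell (34.3% of all genes in each direction), with a median of -0.13, and no ATF4 gene rose. In female p53 Y217C, 6 rose and 2 fell (28.0% and 28.7% of all genes), with a median of 0.27, and the 6 that rose were the ATF4 genes. All 3 comparisons within a culture share the same p53 KO libraries.

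Several of the small female calls were lost when single libraries were left out. In female p53 R172H the fall of *Asns* by 0.12 was lost without female p53 KO replicate 1 or 3 (adjusted p = 0.0825 and 0.0723) or female p53 R172H replicate 3 (adjusted p = 0.108). The rise of *Xbp1* by 0.14 was lost there without female p53 KO replicate 1, 2, or 3 (adjusted p = 0.056, 0.0518, and 0.0796) or female p53 R172H replicate 1 (adjusted p = 0.165). In female p53 Y202C the fall of *Atf4* by 0.12 was lost without female p53 KO replicate 1 or 3 (adjusted p = 0.0701 and 0.0619) or female p53 Y202C replicate 1 or 3 (adjusted p = 0.0595 and 0.358). Without female p53 Y217C replicate 1, the rise of *Atf4* by 0.14 in that line was lost (adjusted p = 0.0689), and a fall of *Herpud1* was gained (adjusted p = 0.0327).

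**Figure D3:**
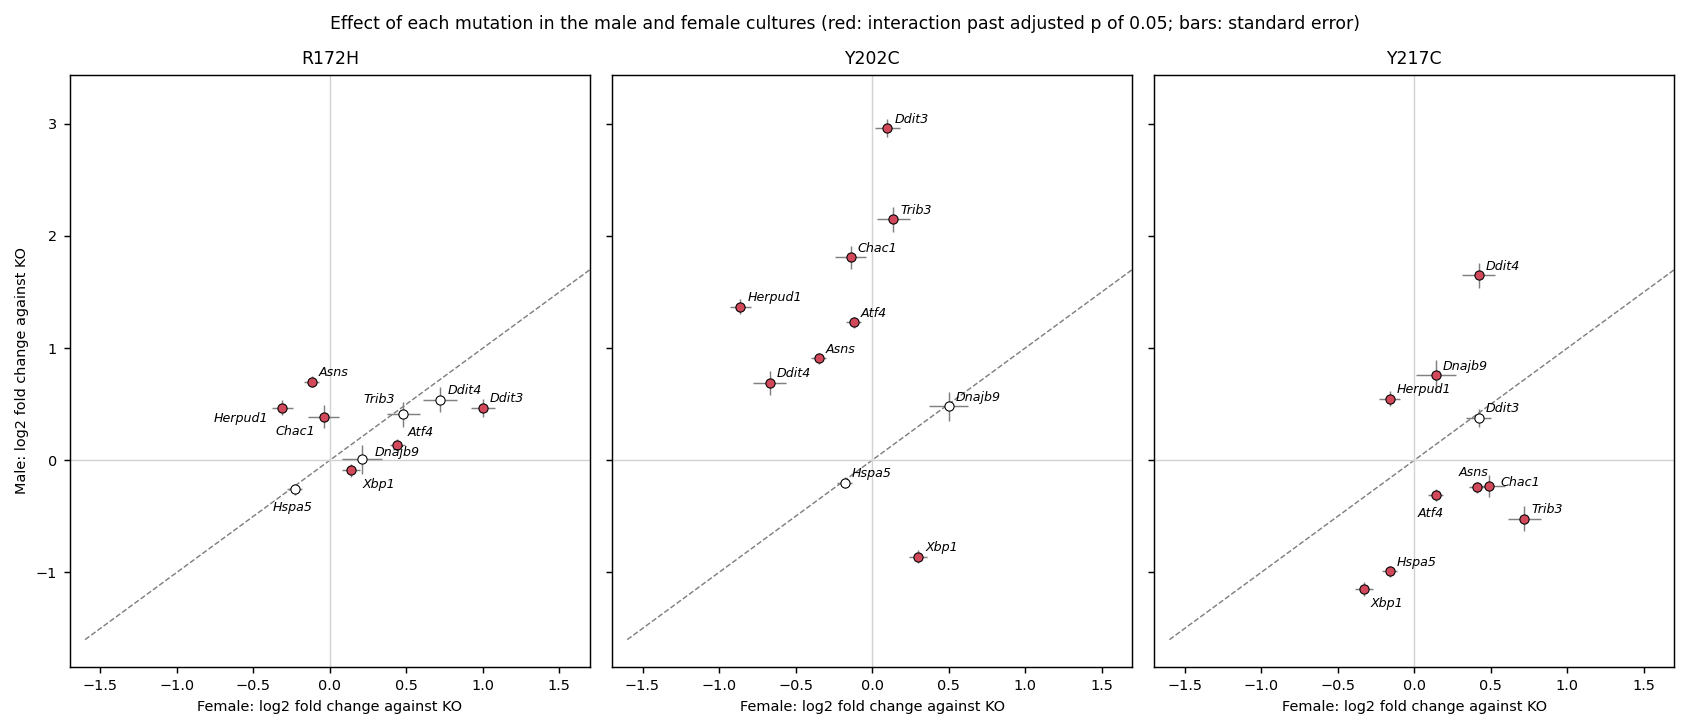
Log2 fold change of each gene against p53 KO in the female (horizontal axis) and the male culture (vertical axis), 1 panel per mutation. Crosses are standard errors, the dashed line marks equal change, and red points are genes whose interaction passed an adjusted p of 0.05. For Y202C the ATF4 genes and *Herpud1* lie above the line, and *Xbp1* lies below it.

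The effect of a mutation was compared between cultures by an interaction term, the male log2 fold change minus the female one. The lines compared did not hold equal *Trp53* RNA. It averaged 2324 CPM in male and 593 CPM in female p53 Y202C, and 1215 and 3709 CPM in p53 Y217C. For p53 R172H it averaged 2287 CPM in the male and 1956 CPM in the female line. The part of this level in the differences was not tested. For Y202C, 8 of the 10 genes differed, where 68.0% of all genes did. *Ddit3* differed by 2.86 ± 0.11 (adjusted p = 8.76e-17), *Herpud1* by 2.23 ± 0.10 (adjusted p = 3.81e-15), *Trib3* by 2.01 ± 0.15 (adjusted p = 2.34e-11), and *Xbp1* by -1.16 ± 0.08 (adjusted p = 7.83e-12). *Hspa5* and *Dnajb9* did not pass the test, with differences of -0.02 ± 0.07 and -0.02 ± 0.18. For Y217C, 9 of 10 differed (54.8% of all genes), among them *Ddit4* by 1.23 ± 0.16 (adjusted p = 3.73e-07), *Trib3* by -1.24 ± 0.15 (adjusted p = 1.72e-07), and *Hspa5* by -0.83 ± 0.07 (adjusted p = 7.21e-10). *Ddit3* was the exception there, at -0.04 ± 0.11. For R172H, 6 of 10 differed (58.0% of all genes), most for *Asns* by 0.81 ± 0.07 (adjusted p = 3.63e-10) and *Herpud1* by 0.78 ± 0.10 (adjusted p = 7.19e-07). The *Xbp1* difference for R172H, -0.23 ± 0.08, was lost without male p53 KO replicate 3, male p53 R172H replicate 1 or 2, or female p53 R172H replicate 1 (adjusted p = 0.0642, 0.0657, 0.0519, and 0.0653).

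The control lines that these comparisons rest on were compared as well. Between male and female p53 KO, 4 of the 10 genes passed the test, where 31.1% of all genes did. *Herpud1* was lower in the male line by 0.82 ± 0.07 on the log2 scale (fitted difference -0.82, adjusted p = 3.97e-09), and *Asns* differed by -0.43 ± 0.05 (adjusted p = 2.00e-07). *Hspa5* was higher in the male line by 0.20 ± 0.05 (adjusted p = 0.00346). *Ddit3* was higher by 0.22 ± 0.08 (adjusted p = 0.0289) with overlapping ranges, and this call was lost without male p53 KO replicate 2 or 3 (adjusted p = 0.18 and 0.0898) or female p53 KO replicate 1 or 2 (adjusted p = 0.114 and 0.0843).

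Other genes of the same pathways were counted in lists chosen by function. The lists were chosen with earlier results of these data known, so their counts are a description. In male p53 Y202C, 18 of 20 amino acid supply genes rose and none fell, with a median log2 fold change of 0.89 beside 0.01 over all genes, of which 37.6% rose and 35.4% fell. The largest rise was *Cth*, which makes cysteine from cystathionine, at 2.80 ± 0.10 (adjusted p = 3.65e-17). Of 13 genes for tRNA charging, 12 rose and none fell (median 0.77), led by *Wars*, the tryptophanyl-tRNA synthetase, at 1.75 ± 0.06 (adjusted p = 4.28e-18). Of 14 signaling targets of ATF4, 12 rose and none fell (median 1.30), led by *Gdf15*, a secreted stress hormone, at 5.92 ± 0.28 (adjusted p = 4.51e-15).

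The ER chaperones went the other way in the same line. Of 20 chaperones and folding enzymes, 17 fell and 1 rose in male p53 Y202C, with a median of -0.59. *Sdf2l1*, an ER protein that works with BiP, fell most, by 1.98 (SE 0.11, adjusted p = 7.25e-14), and *Sil1*, the nucleotide exchange factor of BiP, was the gene that rose, by 1.12 ± 0.09 (adjusted p = 8.60e-11). Of 17 sensors and eIF2 regulators, 8 rose and 4 fell. *Ppp1r15a*, which encodes GADD34 and brings the phosphatase back to eIF2, rose by 3.01 ± 0.08 (adjusted p = 1.25e-19), and *Eif2ak3*, which encodes PERK, fell by 1.26 (SE 0.07, adjusted p = 7.63e-14). The sensor genes of the other arms rose in this line. *Ern1*, which encodes IRE1, rose by 1.37 ± 0.06 (adjusted p = 1.16e-15) and *Atf6* by 1.34 ± 0.05 (adjusted p = 1.06e-16). The ERAD list was split, with 5 of 14 genes higher and 6 lower, near the shares over all genes (37.6% higher and 35.4% lower). Of 15 cytosolic heat shock genes, 4 rose and 10 fell.

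**Figure D4:**
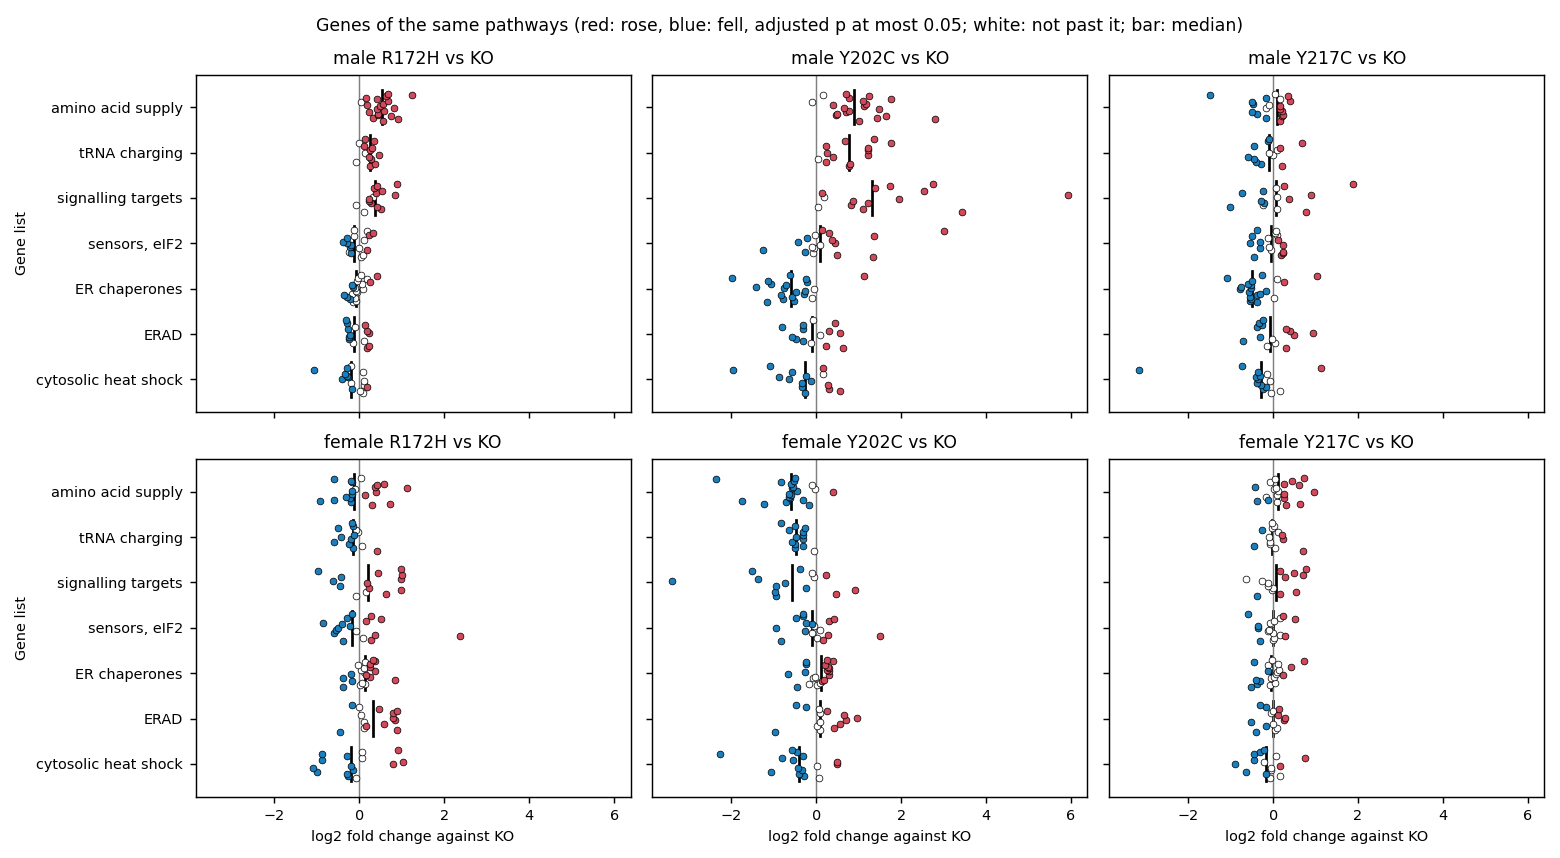
Log2 fold change against p53 KO (horizontal axis) of the genes of 7 lists (rows) in the 6 comparisons (panels). Each point is a gene, red if it rose and blue if it fell at an adjusted p of at most 0.05, white otherwise, and the bar is the list's median. In male p53 Y202C the upper 3 lists have medians of 0.89, 0.77, and 1.30 and the ER chaperones -0.59.

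Male p53 R172H showed the rise of the ATF4 lists in a weaker form and little change of the chaperones. There 19 of 20 amino acid supply genes, 10 of 13 tRNA charging genes, and 11 of 14 signaling targets rose and none fell, with medians of 0.52, 0.25, and 0.38, where 20.2% of all genes rose and 20.5% fell. The arginine transporter gene *Slc7a3* rose most, by 1.23 ± 0.10 (adjusted p = 5.35e-10), and of 20 ER chaperones 2 rose and 5 fell. In male p53 Y217C the ATF4 lists were split, with 8 higher and 7 lower of 20, 3 and 7 of 13, and 5 and 5 of 14, beside 34.9% and 35.6% of all genes. The ER chaperones fell there as in male p53 Y202C, 16 of 20 lower and 2 higher with a median of -0.50, and again *Sdf2l1* fell most, by 1.08 (SE 0.11, adjusted p = 2.64e-09), and *Sil1* rose most, by 1.04 ± 0.09 (adjusted p = 4.23e-10).

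Female p53 Y202C was low in the ATF4 lists. Of 20 amino acid supply genes, 17 fell and 1 rose (median -0.59, with 34.3% of all genes in each direction), and *Slc7a3* fell by 2.35 (SE 0.11, adjusted p = 9.95e-15). Of 13 tRNA charging genes, 12 fell and none rose (median -0.47), and of 14 signaling targets 9 fell and 3 rose (median -0.57). *Fgf21*, a secreted metabolic hormone, fell most, by 3.39 (SE 0.22, adjusted p = 3.49e-12). The 20 ER chaperones were split with 10 higher and 5 lower (median 0.11). In the same line *Atf4* RNA differed from its control by -0.12. In female p53 R172H, 34.4% of all genes were higher and 35.3% lower. Beside these shares, 8 were higher and 10 lower of 20 amino acid supply genes, and 1 and 9 of 13 tRNA charging genes. The counts were 8 and 4 of 14 signaling targets, 8 and 4 of 20 chaperones, and 8 and 2 of 14 ERAD genes. The medians of the 3 ATF4 lists there were -0.13, -0.15, and 0.20. *Eif2ak2*, which encodes PKR, rose there by 2.38 ± 0.10 (adjusted p = 3.86e-16). It also rose in female p53 Y202C by 1.49 ± 0.10 (adjusted p = 3.01e-12) and in female p53 Y217C by 0.27 ± 0.10 (adjusted p = 0.0189). Its changes in the male lines lay between -0.27 and 0.22. In female p53 Y217C, 9 of 20 amino acid supply genes rose and 3 fell (median 0.10), where 28.0% of all genes rose and 28.7% fell. Of 13 tRNA charging genes there, 3 rose and 2 fell (median -0.03). Of 14 signaling targets 7 rose and 1 fell (median 0.07), and of 20 chaperones 3 rose and 6 fell.

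Tested as interactions for Y202C, 19 of 20 amino acid supply genes, 13 of 13 tRNA charging genes, and 13 of 14 signaling targets were changed more upward in the male than in the female culture and none the other way, while 15 of 20 ER chaperones were changed more downward and 2 more upward. The median differences were 1.47, 1.19, 2.06, and -0.60, beside 0.00 over all genes, of which 34.5% were changed more upward and 33.5% more downward.

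Other cell type markers moved in the same lines. The summed level of 7 fibroblast and pericyte markers in the table, of 8 listed, was 10100 to 12300 CPM in male p53 Y202C. It was 20100 to 20700 CPM in male p53 Y217C and 27600 to 32500 CPM in male p53 KO. In the female lines the sum ran from 24600 to 44700 CPM. Collagen genes made up most of it, with *Col1a1* at 17290 and *Col1a2* at 10260 CPM on average in male p53 KO. *Col1a1* averaged 3361 CPM in male p53 Y202C. The list was split, with 1 of 7 higher and 3 lower in male p53 Y202C (37.6% and 35.4% of all genes). In male p53 Y217C, 2 were higher and 4 lower (34.9% and 35.6%), and *Pdgfrb* rose by 1.56 ± 0.07 and *Acta2* by 0.66 ± 0.06. Of 10 astrocyte markers, 3 rose and 7 fell in male p53 Y202C, where 37.6% of all genes rose and 35.4% fell. In male p53 Y217C 8 of the 10 rose and none fell, where 34.9% of all genes rose and 35.6% fell. The part of these shifts in the changes of ATF4 and ER genes was not tested.

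Of the 20 ER chaperones, 15 had a RefSeq promoter window, and 6 of these held ERSE letters, *Calr*, *Canx*, *Creld2*, *Dnajc3*, *Hsp90b1*, and *Pdia6*. These were named for their letters and not for their change. All 6 fell in male p53 Y202C, from -0.48 for *Hsp90b1* to -1.15 for *Calr*, and in male p53 Y217C, from -0.37 for *Calr* to -0.56 for *Hsp90b1*. *Hspa5*, with the same letters, fell by 0.20 in the first line and 0.99 in the second. Falls were not confined to these genes. Of all 20 chaperones, 17 fell in the first line and 16 in the second, beside 35.4% and 35.6% of all genes. *Sdf2l1*, which fell most of the 20 in both lines, was not among the 6. Among genes with a window, CARE letters were found for 3 of 16 amino acid supply genes and 3 of 8 tRNA charging genes. They were found for 5 of 12 signaling targets and 1 of 15 chaperones. The share over all windows was 3.45%, which counts windows and not genes. *Asns* and *Chac1*, with CARE, rose by 0.91 and 1.81 in male p53 Y202C, and *Ddit3* and *Trib3*, without it in this window, by 2.96 and 2.15. A match of letters is a description of the window and not evidence of a bound factor.

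Across the 8 line means of log2 CPM, *Atf4* ran with *Trib3* (Pearson r = 0.96), *Ddit3* (0.93), and *Chac1* (0.91), less with *Herpud1* (0.73) and *Asns* (0.69), and hardly with *Ddit4* (0.12) or *Hspa5* (0.37). *Ddit4* ran against *Xbp1* (-0.79) and *Hspa5* (-0.69), and *Hspa5* against *Dnajb9* (-0.77). The 8 points share 2 cultures and their control lines, male p53 Y202C weighs heavily in the first group and male p53 Y217C in the second, and the values are a description. Among the 5 other genes most like *Trib3* over the 8 lines were *1810013L24Rik* (0.98), *Nupr1* (0.975), *Col4a3bp* (0.973), and *Rela* (0.972). *Nupr1*, a stress-induced chromatin protein, was also on the list of ATF4 signaling targets. Those most like *Hspa5* were *Adora2b* (0.968), *Lpp* (0.96), *Pdlim5* (0.96), *Sema4f* (0.958), and *Adnp* (0.943), and no ER chaperone was among them.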

How the data were processed

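Counts were deposited as raw reads per gene, without normalization. The authors aligned reads with STAR 2.5.1a to an Ensembl primary assembly and counted unambiguous reads per gene with featureCounts from Subread, and their methods leave out low and ribosomal genes. The strand used for counting is not given in the sources used here. Symbols and positions came from GENCODE M21 on GRCm38, which named 14350 of 14427 identifiers, and promoter sequences from RefSeq on GRCm38.p6. The 10 genes and the lists were chosen with earlier results of these data known.

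In R 4.3.3, edgeR 4.0.16 was used to compute TMM factors over 24 libraries, keep genes above 1 CPM in at least 2 libraries (none was removed), and fit the quasi-likelihood test, with a mean for each line. Each mutant was compared with the p53 KO of its culture, the male and female effects by an interaction, and p53 KO between cultures. The Benjamini-Hochberg adjustment ran over all genes, and the threshold was 0.05. Named genes are the 10, for each list and comparison the largest rise and fall past the threshold, marker genes, *Trp53*, and for likeness the 5 nearest genes to *Trib3* and *Hspa5* by log2 CPM (prior count 2), of which 1 is not reported here. Genes with promoter letters and *Mars* were added for their sequence and position, and *Ern1* and *Atf6* as sensors beside *Eif2ak3*. Totals of 52787288 to 136503809 counts per library gave the lowest of the 10, *Dnajb9*, at least 948 counts in every library. Alternatives were DESeq2 1.42.0, its size factors, limma 3.58.1 with voomWithQualityWeights (the study's method), other filters and thresholds, the lines compared alone, the replicate block, and leaving out each replicate.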

Additional observations from a re-analysis of the deposited data

Results flagged for a closer look

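The effect of a mutation differed between the male and the female culture, by the interaction test of edgeR, for 23 combinations of gene and mutation. Of these, 6 were for R172H, 8 for Y202C, and 9 for Y217C. By the same test, 58.0% of all genes differed for R172H, 68.0% for Y202C, and 54.8% for Y217C. The differences below are the male log2 fold change minus the female one. For R172H the differences were -0.29 for *Atf4*, -0.53 for *Ddit3*, 0.81 for *Asns*, 0.43 for *Chac1*, -0.23 for *Xbp1*, and 0.78 for *Herpud1*. For Y202C they were 1.35 for *Atf4*, 2.86 for *Ddit3*, 1.26 for *Asns*, 2.01 for *Trib3*, 1.95 for *Chac1*, 1.36 for *Ddit4*, -1.16 for *Xbp1*, and 2.23 for *Herpud1*. For Y217C they were -0.45 for *Atf4*, -0.65 for *Asns*, -1.24 for *Trib3*, -0.72 for *Chac1*, 1.23 for *Ddit4*, -0.83 for *Hspa5*, -0.83 for *Xbp1*, 0.71 for *Herpud1*, and 0.62 for *Dnajb9*. In 11 of the 23 the gene passed the test in opposite directions in the 2 cultures, 5 of them for Y202C. The share of all genes with such opposite calls was not computed, so whether 11 is more than other genes give was not tested. The 11 include *Asns* for R172H, *Atf4* for Y202C and Y217C, and *Chac1* for Y217C, whose calls in 1 culture were lost without single libraries. With 1 culture of each sex, sex and culture cannot be told apart. The level of *Trp53* RNA also differed between the male and female lines of a mutation, and its part was not tested.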

How the results depend on the processing

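Over 10 genes, 10 comparisons, and all alternatives, 1569 of 1680 values kept their direction and their side of the threshold, 81 fell short of it, 8 passed it, and 22 changed sign. The main filter removed no gene, so the 100 values of the setting without a filter could not change. Requiring an absolute log2 fold change above 0.5 left 2 of 8 calls in male p53 R172H, 6 of 10 in male p53 Y217C, 2 of 8 in female p53 R172H, 2 of 7 in female p53 Y202C, 1 of 8 in female p53 Y217C, 3 of 6 for the R172H interaction, and 1 of 4 between p53 KO lines, by its construction. The calls of *Hspa5* and *Dnajb9* were lost in male p53 Y202C and that of *Atf4* for the Y217C interaction. The same threshold left 1861 of 5872 genes in male p53 R172H, 6531 of 10529 in male p53 Y202C, 5812 of 10176 in male p53 Y217C, 5603 of 10060 in female p53 R172H, 5435 of 9891 in female p53 Y202C, 3657 of 8183 in female p53 Y217C, 5218 of 8365 and 5054 of 7913 for the R172H and Y217C interactions, and 1730 of 4482 between p53 KO lines, where voom called 7186. Without single replicates, calls among the 10 ranged from 7 to 9, 10 to 10, and 9 to 10 in male p53 R172H, Y202C, and Y217C, from 6 to 8, 6 to 7, and 7 to 8 in the female lines, from 5 to 6, 8 to 8, and 9 to 9 for the interactions, and from 3 to 4 between p53 KO lines. Replicate numbers did not pair the libraries (mean correlation of deviations -0.0117 over 84 pairs with the same number, 0.00574 over 168 others), although the 3 pairs of male p53 R172H and p53 KO were positive (0.0674 to 0.246). With the replicate block, calls were 8, 10, and 9 in the male lines, 8, 7, and 8 in the female lines, 6, 8, and 9 for the interactions, and 4 between p53 KO lines, and the only call it changed was *Chac1* in male p53 Y217C (-0.23, adjusted p = 0.057).

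The sign changes were all of values near 0 that did not pass the test, and the cause was not tested. *Dnajb9* in male p53 R172H became -0.02 with voom and -0.01 with genes above 1 CPM in all libraries, and its difference between p53 KO lines 0.0004 with voom. *Hspa5* became 0.01 with voom for the Y202C interaction. Without single replicates, *Dnajb9* ranged from -0.09 to 0.08 in male p53 R172H, from -0.20 to 0.12 for the Y202C interaction, and from -0.10 to 0.06 between p53 KO lines, and *Hspa5* from -0.08 to 0.02 for the R172H and the Y202C interactions. *Ddit3* ranged from -0.11 to 0.04 for the Y217C interaction, *Chac1* from -0.11 to 0.01 in female p53 R172H, *Trib3* from -0.18 to 0.004 for the R172H interaction, and *Ddit4* from -0.17 to 0.03 between p53 KO lines. With voom, *Chac1* in female p53 Y202C (-0.21, adjusted p = 0.0253), *Dnajb9* in female p53 R172H (0.21, adjusted p = 0.048), *Herpud1* in female p53 Y217C (-0.20, adjusted p = 0.00188), and *Trib3* between p53 KO lines (0.23, adjusted p = 0.00857) passed the threshold. RNA counts do not measure ATF4 protein, eIF2 phosphorylation, or *Xbp1* splicing.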
